A study of Canis lupus familiaris with 8 samples.

Results

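The cells described here were 247 canine CD8 T cells that carried RNA for FCER1G and TOX and no detected GZMB RNA. They were chosen by their raw counts of unique molecular identifiers (UMIs, 1 per captured RNA molecule). A member had at least 1 UMI of CD8A, FCER1G and TOX and 0 UMIs of CD4 and GZMB, in a cell with 500 to 20000 UMIs and a mitochondrial share of at most 10%. They were 247 of 6427 CD8A+ CD4- cells and of 31909 cells kept in all. Dog 1 gave 14 members, dog 2 gave 53, dog 3 gave 28 and dog 4 gave 152.

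Blood of 4 Beagles, healthy and without treatment, gave the TCRαβ+ T cells, which were sorted and profiled by 5′ single-cell RNA sequencing and by sequencing of their rearranged receptor genes. The only female was dog 1, aged 5 years, while the males were aged 7 years (dogs 2 and 3) and 9 years (dog 4). Every dog gave 1 expression library and 1 receptor library, so the dog is the replicate (n = 4) and cells of 1 dog are not. The kept cells numbered 7096, 8454, 8109 and 8250 in dogs 1 to 4, and the deposited matrices held 26904346, 35661623, 32637367 and 32773374 UMIs. Sex and age differ between the dogs and cannot be told apart from the dog itself.

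FCER1G encodes the Fc receptor gamma chain, a small signalling adaptor that pairs with Fc receptors and activating receptors in myeloid and natural killer cells and is also known from innate-like T cells. TOX encodes a nuclear factor needed for T cell development that is also known from memory and exhausted CD8 T cells. GZMB encodes granzyme B, a protease of killer granules. CD7 is a surface protein of T and natural killer cells, and CCL5 is a chemokine stored by memory and effector lymphocytes. Each T cell receptor joins an alpha chain (TRA) and a beta chain (TRB), and the junction where V and J segments meet is a stable mark of a clone.

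In dog 4 most members belonged to few clones (114 of 152 in clones of 4 or more members), against 4 of 14 in dog 1, 24 of 53 in dog 2 and 8 of 28 in dog 3. The junctions shown are the 2 TRA junctions most frequent among the members of each dog, the 2 most frequent TRAV24 junctions and the TRB junction of clone 1, so clones 3, 5 and 7 are not shown. The second of dog 1 is the same as the TRAV24/TRAJ38 junction of dog 4 and is shown once. Capitals mark the bases between the start shared with at least 50% of the other junctions of that V gene and the end shared with at least 50% of the others of that J gene. The junctions were read 5′ to 3′ from the deposited receptor tables, which give no genome position for them.
Dog 4, clone 1, TRAV24/TRAJ38: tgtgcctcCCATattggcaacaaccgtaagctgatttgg
Dog 4, clone 1, TRAV9-7/TRAJ45: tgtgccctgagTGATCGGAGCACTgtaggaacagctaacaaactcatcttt
Dog 4, clone 1, TRBV3-1/TRBJ2-1: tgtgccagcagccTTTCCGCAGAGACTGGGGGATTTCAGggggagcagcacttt
Dog 4, clone 4, TRAV24/TRAJ58: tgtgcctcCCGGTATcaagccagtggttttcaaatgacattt
Dog 2, clone 2, TRAV43-1/TRAJ33: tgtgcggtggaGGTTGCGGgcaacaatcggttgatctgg
Dog 2, clone 8, TRAV43-1/TRAJ28: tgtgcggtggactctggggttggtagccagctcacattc
Dog 3, clone 6, TRAV43-1/TRAJ23: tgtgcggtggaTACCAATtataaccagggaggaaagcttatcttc
Dog 3, TRAV9-10/TRAJ48: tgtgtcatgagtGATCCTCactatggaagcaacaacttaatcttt
Dog 1, clone 9, TRAV9-11/TRAJ31: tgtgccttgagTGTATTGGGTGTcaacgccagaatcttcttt

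Clone 1 of dog 4 held 130 cells of one TRB junction, and 76 of them were members. Of its 129 cells with a TRA, 99 had 2 productive TRA chains, which are the TRAV24/TRAJ38 and TRAV9-7/TRAJ45 junctions above. Clone 4, also of dog 4, again used TRAV24 and TRBV3-1 but with other J genes and other junctions. The TRAV43-1/TRAJ28 junction of dog 2 has no capital, because its shared start and shared end meet.

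Some receptors of libraries 1 and 4 were identical. A total of 41 TRA and TRB combinations were the same base for base in both, carried by 44 cells of library 1 and 603 cells of library 4. No such receptor was shared by any other pair of libraries. The receptor of clone 1 was among them, and 2 of the 14 members of dog 1 carried a TRB junction of library 4, which left 12 members. The reason was not tested, and the main counts are given below also without these cells. Each pair of libraries shared between 87 and 120 cell barcodes.

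The share of members among CD8A+ CD4- cells differed between the dogs. It was 2.03% in dog 1 (14 of 691 cells, exact 95% binomial interval 1.11 to 3.38%), 3.71% in dog 2 (53 of 1427, 2.79 to 4.83%), 1.23% in dog 3 (28 of 2280, 0.818 to 1.77%) and 7.49% in dog 4 (152 of 2029, 6.38 to 8.72%). The intervals cover counting error only. The mean over dogs was 3.61% ± 2.78 (SD, n = 4). Dog 4 was highest. Clone mates are not separate draws, so the intervals are too narrow where a clone is large, and no test between dogs was made. Without the cells of clone 1, the share in dog 4 was 3.98% and lay next to that of dog 2.

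**Figure D1:**
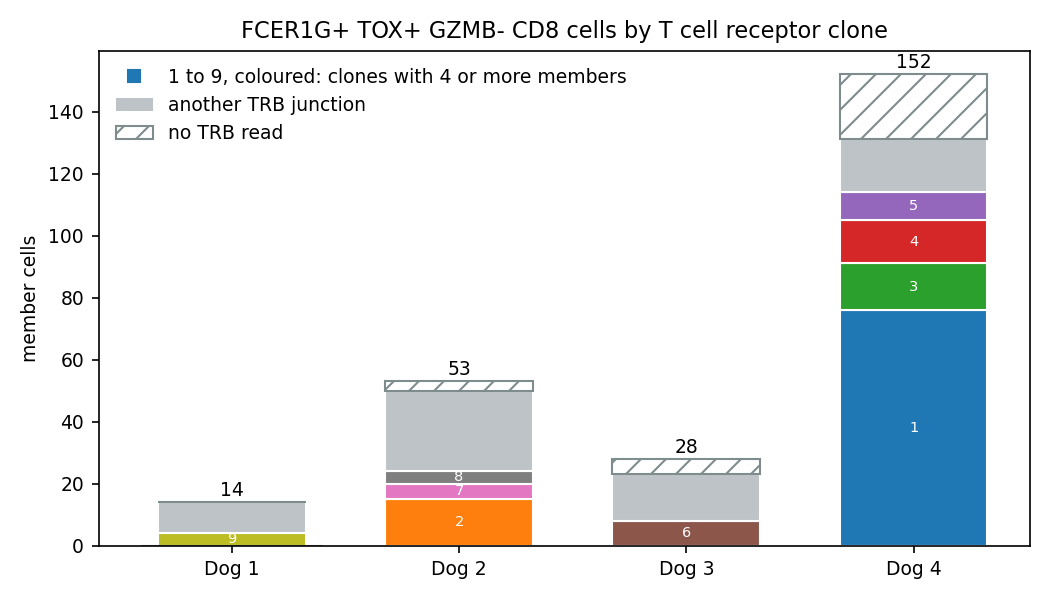
Members in each dog by clone, where a clone is 1 TRB junction within a dog (a pair of them in clone 3). The vertical axis counts cells, and coloured segments are the 9 clones with 4 or more members. Grey segments are members with another TRB junction, and hatched segments are members with no TRB read. Clone 1 alone gives 76 of the 152 members of dog 4.

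The gate itself was uneven in what it asked of a cell. Members had a median of 7 FCER1G UMIs (1 to 34), and 17 of them had exactly 1. Their median for TOX was 2 UMIs (1 to 6), and 106 of them, 42.9%, had exactly 1. In CD4+ CD8A- cells, which should lack FCER1G, 0.355% of 13247 cells had an FCER1G UMI at a median of 3955 UMIs per cell, against 22.8% of CD8A+ CD4- cells at a median of 3726. TOX did not set the lineages apart in this way, with 24.2% of CD4+ CD8A- cells and 25.1% of CD8A+ CD4- cells carrying a UMI.

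Only in dog 4 was FCER1G more frequent among CD8A+ CD4- cells with a TOX UMI than among those without, at 38.2% and 23.4%. The shares with and without TOX were 20.1% and 21.3% in dog 1, 26.7% and 27.2% in dog 2, and 14.5% and 16.4% in dog 3. These are descriptions, since both genes are part of the gate.

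Depth moved the share of members. The median was 4771 UMIs in members and 3686 in the other CD8A+ CD4- cells. With every cell thinned to 2000 UMIs, members made up 1.21%, 2.52%, 1.15% and 4.58% of the CD8A+ CD4- cells of dogs 1 to 4, and the same deep cells without thinning gave 2.21%, 4.19%, 1.34% and 8.10%. Cells under 2000 UMIs were left out, namely 58, 163, 268 and 226 CD8A+ CD4- cells.

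The label of the cells as CD8 T cells was checked against T cell markers. Every member had a UMI of at least 1 CD3 gene, 98.0% had CD3E and 91.9% had a productive TRA or TRB. CD3E, a chain of the receptor complex, stood at 1294, 1330, 973 and 1160 CPM (UMIs of the gene scaled to an equal total per sum) in the members of dogs 1 to 4. CCL5, named among the markers of these cells, was at 8004, 2311, 3835 and 1470 CPM in members and at 4716, 2600.5, 1045 and 2265 CPM in the other CD8A+ CD4- cells. The groups overlapped, with members higher in dogs 1 and 3 and lower in dogs 2 and 4 (log2 fold change 0.44 ± 0.45 SE, adjusted p = 0.754). Per cell, thinned to 2000 UMIs, CCL5 was detected in 62.6% ± 9.76 of members and 37.4% ± 10.5 of the other cells (mean over dogs ± SD, n = 4), which was not tested.

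The next question was which genes set the members apart from the 6180 other CD8A+ CD4- cells. UMIs were summed per dog and group, and edgeR's quasi-likelihood test was fitted over all genes with Benjamini-Hochberg adjustment. Of 8104 genes tested, 249 passed an adjusted p of 0.05, which is 3.07%, with 106 (1.31%) higher and 143 (1.76%) lower in members. A fit that kept the dog as a block called 498 genes (6.15%), of which 196 (2.42%) were higher and 302 (3.73%) lower, and 245 of the 249 were among them. The values of the 4 members' sums and the 4 comparators' sums did not overlap for 10.5% of all genes tested. The 5 genes of the gate were not tested. Both sums of a dog come from 1 animal and 1 library.

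Here and below, the largest changes are ranked among genes that passed, have a symbol and moved the same way in 4 of 4 dogs. These genes also had to reach a mean of 50 CPM in a group. CD7 was the most abundant gene among the 12 largest increases. Its level in members was 985, 1084, 1199 and 1240 CPM in dogs 1 to 4, against 427, 406, 330 and 424 CPM in the other CD8A+ CD4- cells. Every member value lay above every comparator value (log2 fold change 1.44 ± 0.11 SE, adjusted p = 2.6e-05). After thinning to 2000 UMIs, CD7 was detected in 88.0% of members and 45.3% of the other cells.

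A pair of signalling adaptors rose with it. LAT2, an adaptor related to LAT that is used below Fc and B cell receptors, was at 68.7, 118, 110 and 101 CPM in members and at 14.2, 11.6, 12.97 and 20.9 CPM in the others (log2 fold change 2.71 ± 0.23 SE, adjusted p = 2.6e-05). GCSAM, a signalling protein known from germinal centre B cells, was at 103, 114, 135 and 126 CPM against 19.7, 19.0, 7.29 and 14.7 CPM (log2 fold change 2.996 ± 0.29 SE, adjusted p = 7.7e-05). Neither gene's groups overlapped in any dog. LAT itself, the adaptor below the T cell receptor, fell by 1.43 on the log2 scale (adjusted p = 0.0159).

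IKZF2, which encodes the transcription factor Helios, was at 137, 91.9, 96.7 and 118 CPM in members and at 48.9, 35.0, 24.2 and 34.4 CPM in the others. The lowest member value was above the highest comparator value (log2 fold change 1.59 ± 0.23 SE, adjusted p = 0.0019). PRSS57, a serine protease, had the largest increase of the 12. It went from 4.01, 5.30, 0.810 and 8.45 CPM to 45.8, 44.1, 12.9 and 109 CPM, which is 3.80 ± 0.57 (SE) on the log2 scale (adjusted p = 0.0020). The other 7 of the 12 were TNFRSF6B, GMEB2, the chemokine receptor CCR6, the kinase FES, DENND4A, CDCA7L and SYTL2, with log2 fold changes from 1.37 to 2.07.

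The 12 largest decreases under the same rule held 2 granzymes and several T cell signalling genes. THEMIS, which tunes receptor signalling during T cell development, was at 11.5, 7.35, 6.45 and 7.00 CPM in members and at 96.0, 104, 95.8 and 72.8 CPM in the others (log2 fold change -3.71 ± 0.31 SE, adjusted p = 2.6e-05). CD5, an inhibitory coreceptor, was at 91.6, 80.8, 110 and 33.6 CPM against 239, 325, 268 and 246 CPM (log2 fold change -2.16 ± 0.25 SE, adjusted p = 0.000345). Members were lower in every dog for both genes, and the groups did not overlap.

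GZMK, a granzyme of memory CD8 T cells, was at 22.9, 110, 96.7 and 64.4 CPM in members and at 424, 868, 879 and 665 CPM in the others. All members lay well below all comparators (log2 fold change -3.26 ± 0.29 SE, adjusted p = 3.8e-05). CMA1, a chymase, had the largest decrease of the 12 at -4.00 ± 0.55 SE. THY1 fell by 2.55, SH2D1A by 2.13 and ICOS by 2.01 on the log2 scale. RBP4, GZMA, ADGRG1, BST2 and ITGA5 completed the 12. A further 17 genes that met the rest of the rule have an identifier only, 6 higher and 11 lower, among them ENSCAFG00000013040 (log2 fold change 2.40) and ENSCAFG00000029181 (-1.87).

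**Figure D2:**
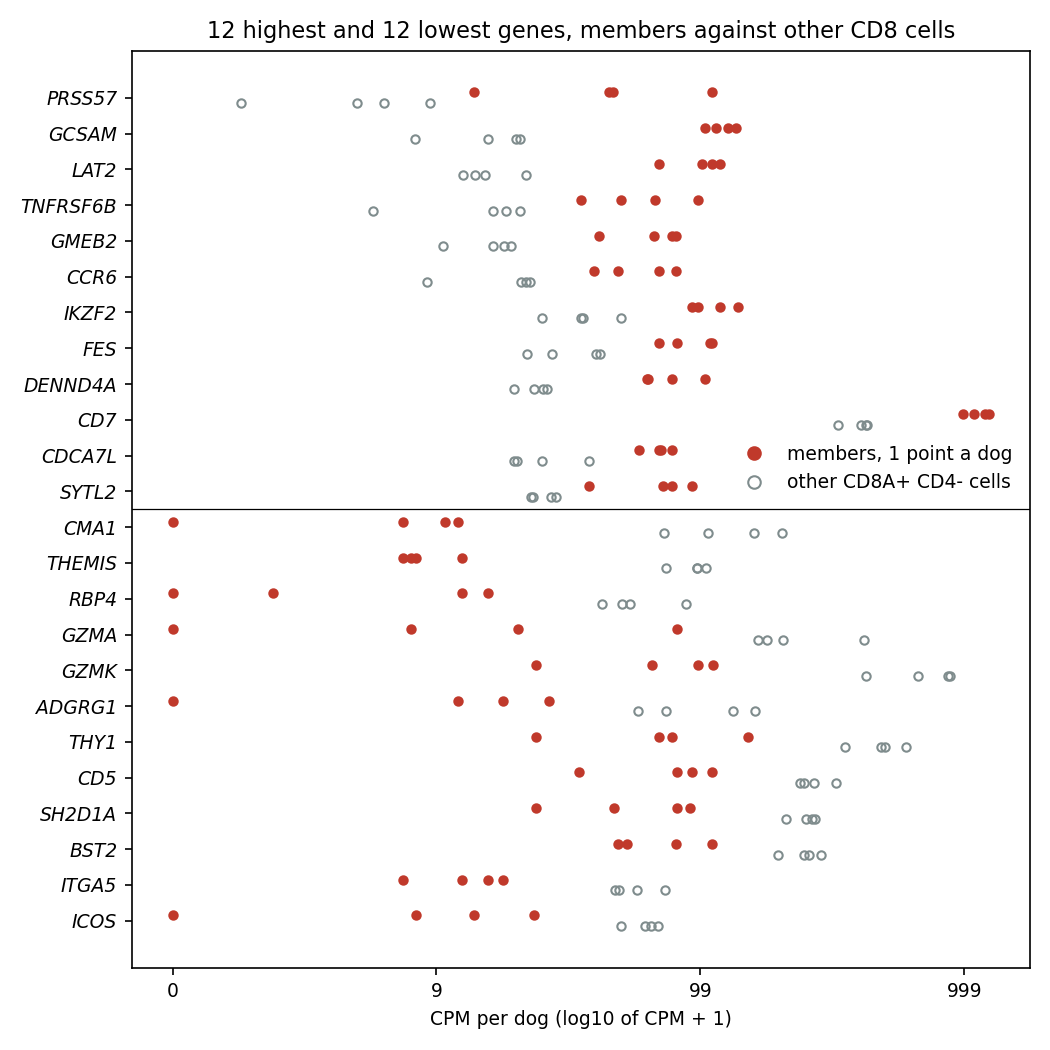
Levels of the 12 highest and 12 lowest named genes in each of 4 dogs, as log10(CPM + 1) on the horizontal axis. Filled points are members and open points are the other CD8A+ CD4- cells. PRSS57 (log2 fold change 3.80) is the top row, and CMA1 (-4.00) is the first row below the line.

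Since the comparator holds GZMB+ cells and the members by rule do not, the comparison was repeated with GZMB+ cells taken out of the comparator. A total of 235 genes passed, 138 of them among the 249. CD7 (log2 fold change 1.34), IKZF2 (2.09), THEMIS (-3.83), CD5 (-2.40) and GZMK (-2.53) passed again. GZMA, PRF1 and TBX21 did not: GZMA was at 0.18 (adjusted p = 0.977), PRF1 at 0.05 (adjusted p = 0.999) and TBX21 at 0.41 (adjusted p = 0.638), all in the opposite direction. EOMES, FASLG, KLF6, NR4A1, CXCR4, ITGB2, ITGB7, MKI67, JUND, ADGRG1 and CDCA7L kept their direction but missed the threshold. Their log2 fold changes are not given here, so losses at a similar and at a smaller size are not set apart. NCR3, an activating receptor of natural killer cells that had not passed (log2 fold change -0.05, adjusted p = 0.987), was then higher in members (1.45, adjusted p = 0.0024).

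Gene groups are described next by role, from the fit without the dog block, beside the median log2 fold change of all 8104 genes, -0.01, and their share called, 3.07%. A list with 0 or 1 gene called of about 10 cannot be set above or below that share. Among 13 innate-like receptors and adaptors tested, CD244 rose, SH2D1A and KLRG1 fell and 10 did not pass, with a median of -0.05. CD244, a receptor of natural killer and memory T cells, was at 80.2, 95.5, 148 and 120 CPM in members against 52.9, 42.9, 41.1 and 66.8 CPM, and SH2D1A encodes the adaptor that works below it. KLRK1 (0.16, adjusted p = 0.694) and IL2RB (0.43, adjusted p = 0.297) did not pass. Without GZMB+ comparator cells, CD244 missed the threshold with a larger difference (1.46, from 1.10, adjusted p = 0.0646), and SH2D1A (-0.97, from -2.13, adjusted p = 0.162) and KLRG1 (-0.88, from -1.89, adjusted p = 0.338) missed it with smaller ones.

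Of 15 T lineage transcription factors, IKZF2 and IKZF3 rose and KLF6, TBX21, BHLHE40 and EOMES fell, with a median of -0.52. TBX21 and EOMES, the T-box factors of effector and memory cells, changed by -1.17 and -1.90. ZBTB16, the factor of innate-like T cells, was at 0, 25.7, 12.9 and 15.4 CPM in members against 27.0, 21.9, 22.6 and 18.5 CPM, and it did not pass (adjusted p = 0.559). GATA3 did not pass either (-0.38, adjusted p = 0.449).

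Of 9 cytotoxic molecules, PRF1 (perforin), GZMK, GZMA and FASLG fell and none rose, with a median of -0.10. CTSW, a protease of cytotoxic lymphocytes, was higher in 4 of 4 dogs without passing (0.46, adjusted p = 0.0986), and SRGN was at -0.10 (adjusted p = 0.817). Of 9 cytokines and chemokines, IL2 alone passed, at 34.4, 33.1, 25.8 and 26.6 CPM in members against 5.84, 9.57, 10.8 and 7.91 CPM (log2 fold change 1.64, adjusted p = 0.0081), while CCL4 did not (-1.09, adjusted p = 0.0872). Without GZMB+ comparator cells IL2 no longer passed (0.72, adjusted p = 0.215).

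Inhibitory receptors and factors linked to exhaustion moved in both directions. Of 10 tested, TIGIT and CD244 rose and PDCD1, CTLA4 and NR4A1, a nuclear receptor, fell, with a median of 0.30. TIGIT was at 22.9, 47.8, 51.6 and 47.6 CPM in members against 3.65, 5.13, 3.94 and 7.50 CPM (log2 fold change 3.06, adjusted p = 0.0001). PDCD1, which encodes PD-1, was at 11.5, 3.67, 6.45 and 4.20 CPM against 16.8, 34.4, 18.5 and 31.5 CPM (-2.44, adjusted p = 0.0278). HAVCR2 did not pass (0.73, adjusted p = 0.712), and BTLA, at 0, 3.67, 0 and 0 CPM in members, was too low to be tested.

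Of 11 naive and stem-like memory genes, TCF7 rose and those that fell included CD27 and CD28, with a median of -0.85. TCF7, the factor of naive and self-renewing T cells, was at 470, 540, 586 and 450 CPM in members and at 226, 228, 160 and 175 CPM in the others (log2 fold change 1.30 ± 0.14 SE, adjusted p = 0.00016). Against comparator cells without GZMB its difference was 0.50 and did not pass (adjusted p = 0.0547). LEF1 (-0.85, adjusted p = 0.238), IL7R (-0.31, adjusted p = 0.714) and CCR7 (-2.27, adjusted p = 0.112) did not pass in the full comparison.

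Of 18 genes of the receptor complex and its signalling, CD7 and PTPN22 rose and those that fell included THEMIS, LAT, CD5 and CD6, with a median of -0.18. The CD3 chains did not pass, nor did CD2 (-0.22, adjusted p = 0.508). CD6, a coreceptor related to CD5, was at 252, 103, 226 and 60.2 CPM in members against 344, 404, 408 and 411 CPM (log2 fold change -1.73, adjusted p = 0.0041).

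Of 17 homing receptors and integrins, CCR6 and ITGB7 rose and those that fell included CCR2, CXCR4, CXCR6 and ITGB2, with a median of -0.61. ITGAE (0.59, adjusted p = 0.0991) and ITGAL (-0.62, adjusted p = 0.0897) did not pass. CCR6 was at 80.2, 47.8, 38.7 and 68.6 CPM in members against 21.5, 19.8, 8.22 and 20.9 CPM, and CXCR6 was at 11.5, 3.67, 6.45 and 4.20 CPM against 35.4, 41.0, 27.8 and 18.0 CPM. Neither pair of groups overlapped, and neither gene passed without GZMB+ comparator cells (log2 fold change 1.20, adjusted p = 0.127, and -1.68, adjusted p = 0.109).

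In each of the remaining lists 0 or 1 gene passed. None of 6 MHC class II genes passed (median 0.04), with DLA-DRA at -0.18 and DLA-DQA1 at 0.25. IFNGR1 fell among 10 cytokine receptors (median -0.26), where IL2RG was at 0.08 and IL12RB2 at -0.78. MKI67 fell among 6 cell cycle genes (median -1.19), where STMN1 was at 0.13 and HMGB2 at -0.41. JUND fell among 13 early response genes (median -0.38), where FOS was at -0.43 (adjusted p = 0.0547) and CD69 at -0.26, and LDHB rose among 10 glycolysis enzymes (median -0.02), where GAPDH was at -0.16 and ENO1 at -0.34.

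With the dog as a block, where 6.15% of all genes passed, more list genes passed. In place of 1 higher and 2 lower, 4 innate-like genes were higher and 4 lower. Among cytotoxic molecules 1 was higher, CTSW (adjusted p = 0.00997), and 4 were lower. Of the naive and stem-like memory genes 1 was higher and 6 were lower, with LEF1 (adjusted p = 0.0395) and CCR7 (0.000108) now among them, and of the homing receptors and integrins 4 were higher and 9 lower, with ITGAE (0.0058) higher and ITGAL (0.0179) lower. The block called 7 transcription factors lower, 3 genes of the receptor complex and its signalling higher and 6 lower, and 3 inhibitory or exhaustion genes in each direction. It also called 1 MHC class II gene, 2 cytokine receptors, 3 cell cycle genes and 4 early response genes lower. IL2RB (adjusted p = 0.0191) was then higher, and CCL4 (2.2e-05), IL12RB2 (0.0225), HMGB2 (0.0190) and FOS (0.0040) were lower.

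Fewer genes passed when a dog or clone 1 was left out, which also leaves fewer sums or cells. Without dog 4, 88 genes passed, and without dog 2, 121. Of the named genes that had passed, 33 missed the threshold without dog 4, with all of them in the same direction. The log2 fold change without dog 4 was 3.40 for PRSS57, 1.62 for CCR6, 1.48 for IKZF2, -1.07 for TBX21, 1.68 for IL2 and -2.57 for CTLA4, close to 3.80, 1.73, 1.59, -1.17, 1.64 and -2.53 with all dogs, so that for these the call was lost at a similar size. PRF1 went from -1.74 to -1.25 and PDCD1 from -2.44 to -2.08. CD7, LAT2, GCSAM, GMEB2, FES, DENND4A, TIGIT, TCF7 and CD244 stayed higher, and THEMIS, CD5, GZMK, GZMA, CMA1, THY1, SH2D1A, BST2, KLRG1 and CD27 stayed lower, past the threshold whichever dog was left out. The size of some changes moved when 1 dog was left out. GZMA was at -2.03 without dog 4 and -5.05 without dog 2, where all dogs gave -3.29, EOMES was at -1.23 and ICOS at -3.05 without dog 4, and ENSCAFG00000029181 was at -2.87 without dog 2. Without the cells of clone 1 in both groups, 182 genes passed, 169 of them among the 249, and TNFRSF6B (1.94, from 2.07), KLF6 (-0.60, from -0.61), TBX21 (-1.01, from -1.17) and MKI67 (-1.17, from -1.64) were among the genes that missed the threshold. Without the cells of library 1 that share a TRB junction with library 4, 229 genes passed. In the comparisons below with FCER1G+ GZMB+ cells and with TOX+ TCF7+ FCER1G- cells, 249 and 53 then passed.

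Summed markers of B, myeloid and natural killer cells were below their level in the other CD8A+ CD4- cells. The part of other cell types in the results was not tested. The summed level of 7 B cell markers was 6768, 6912, 6774 and 6712 CPM in members and 10354, 9393, 10552 and 9425 CPM in the other CD8A+ CD4- cells. CD79A made up nearly all of it and was itself lower in members (adjusted p = 0.0003), while CD79B, MS4A1, PAX5 and CD22 were at 0. The 10 myeloid markers found in the gene list summed to 699, 621, 451 and 558 CPM against 891, 1939, 1897 and 1943 CPM. S100A8 was the most abundant of them, and the defining markers LYZ, CSF1R, CSF3R and CD68 were at 0 in members, as were CPA3, KIT and MS4A2 of mast cells and basophils. Natural killer markers summed to 11.5, 14.7, 12.9 and 7.00 CPM against 13.5, 20.9, 16.4 and 22.8 CPM, with NCAM1 and KLRF1 at 0 in members. In the TOX+ TCF7+ FCER1G- cells they were lower than in members, at 6.82, 5.12, 4.53 and 2.89 CPM. Plasma cell markers, of which XBP1 was the most abundant, summed to 240, 301, 219 and 319 CPM in members. Their sums in the other CD8A+ CD4- cells were 232, 255, 228 and 282 CPM.

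The members were then set beside the 982 CD8A+ CD4- cells with both FCER1G and GZMB, which number 118, 261, 287 and 316 in dogs 1 to 4. These share FCER1G with the members and differ by GZMB. Only 190 of them have TOX, so the groups differ by TOX as well, and the 2 differences are not set apart here. Of 6073 genes tested with edgeR, 265 passed (4.36%), 91 (1.5%) higher and 174 (2.87%) lower in members. Under the dog block 448 passed (7.38%), 178 (2.93%) higher and 270 (4.45%) lower. Groups did not overlap for 9.93% of the genes tested.

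TCF7 was at 470, 540, 586 and 450 CPM in members and at 75.3, 123, 80.5 and 110 CPM in the FCER1G+ GZMB+ cells. The groups lay far apart in every dog (log2 fold change 2.34 ± 0.16 SE, adjusted p = 3.4e-07). IL7R, the receptor for interleukin 7, was at 344, 514, 180 and 294 CPM against 42.7, 155, 106 and 101 CPM (1.66 ± 0.29 SE, adjusted p = 0.0020). CD7 (1.11), GCSAM (2.11), LAT2 (1.72), CCR6 (2.09) and PRSS57 (2.39) were higher as well, as were PSEN2, CDCA7L, TNFRSF6B, GPR25, PHACTR2 and SPINT2.

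Of 9 cytotoxic molecules, 4 fell and none rose. GZMB split these groups by rule, so the levels of genes that vary with GZMB are not independent of the choice of cells. Against comparator cells without GZMB, GZMA, PRF1, FASLG, TBX21 and EOMES did not pass, while GZMK did. GZMA was at 0, 80.8, 19.3 and 7.00 CPM in members against 494, 593, 296 and 805 CPM (log2 fold change -4.39 ± 0.49 SE, adjusted p = 2.9e-05; -3.32 without dog 4 and -5.99 without dog 2), and PRF1 was at 34.4, 51.4, 90.2 and 40.6 CPM against 193, 295, 337 and 377 CPM (-2.60 ± 0.25 SE, adjusted p = 9.4e-06). GZMK and FASLG fell too. Of 13 innate-like receptors, 6 fell and none rose, namely SH2D1A, NCR1, NCR3, KLRD1, KLRB1 and KLRG1, and of 13 transcription factors KLF6, TBX21, BHLHE40, ZEB2, EOMES and STAT4 fell. PI3, CMA1, ADGRG1, CX3CR1, DBNDD2, THEMIS and THY1 were also among the 12 largest decreases.

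In the other lists LTB and IL2 rose and CCL4 fell, TIGIT rose and PDCD1 and NR4A1 fell, and CD27 fell. FYN and CD5 fell, CCR6 and ITGAE rose, and ITGAM, ITGAL, ITGB2, CXCR4 and CX3CR1 fell. IFNGR1, IL12RB2, ZFP36, FOS, DUSP2, JUND and IER2 fell, and LDHB and DLA-DQA1 rose. No cell cycle gene passed. The medians of the lists lay between -0.84 for transcription factors and 0.44 for MHC class II genes, against 0.01 over all genes. Without dog 4, 126 genes passed. KLRB1 (-1.37, from -1.77), CCL4 (-1.04, from -1.31), IFNGR1 and DLA-DQA1 were among those that missed the threshold. Of the others that missed it, FYN (-0.56, from -0.63), STAT4 (-0.71, from -0.79) and DUSP2 (-1.14 in both) kept a similar size, and ZEB2 went from -1.58 to -0.98 and CD5 from -1.22 to -0.80. Without clone 1, 222 passed and FOS missed the threshold (-0.43, from -0.50, adjusted p = 0.0603). With the dog block 2 transcription factors were higher, 2 cell cycle genes were lower, and 5 homing receptors and integrins were higher and 6 lower. NCR3 missed the threshold without dog 1, dog 2 or dog 3, with adjusted p from these fits up to 0.165, ITGAE and GPR25 without dog 2 or dog 3 (up to 0.200 and 0.204), PDCD1 and TIGIT without dog 2, and KLRB1, CCL4, PDCD1, CD5, IFNGR1 and IL12RB2 with DESeq2.

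The third comparison used the 545 CD8A+ CD4- cells with TOX and TCF7 and no FCER1G, which number 84, 141, 138 and 182. Their median depth was 4886 UMIs, close to the 4771 of the members. Of 5940 genes tested with edgeR, 53 passed (0.892%), 25 (0.421%) higher and 28 (0.471%) lower in members, and 110 (1.85%) passed under the dog block, 48 (0.808%) higher and 62 (1.04%) lower. Groups did not overlap for 5.54% of the genes tested. TCF7 was part of the choice of these cells and was not tested.

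IKZF2 was at 137, 91.9, 96.7 and 118 CPM in members and at 29.6, 21.8, 22.6 and 23.1 CPM in the TOX+ TCF7+ FCER1G- cells (log2 fold change 2.15 ± 0.21 SE, adjusted p = 1.0e-05). IL2RB, the beta chain of the receptors for interleukins 2 and 15, was at 573, 1308, 1360 and 982 CPM against 268, 438, 460 and 387 CPM (1.41 ± 0.20 SE, adjusted p = 0.0008). Neither pair of groups overlapped. LAT2 (2.78, and 3.44 without dog 4), GMEB2 (2.76), TIGIT (2.07), ITGAM (1.97), GCSAM (1.60) and CD7 (0.85) rose too, together with SYTL2, TIMP1, CLNK, INPP5B, ABHD15, CD96 and CTSW.

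CD5 was at 91.6, 80.8, 110 and 33.6 CPM in members against 339, 475, 333 and 399 CPM (log2 fold change -2.61 ± 0.26 SE, adjusted p = 1.0e-05). CD6 (-2.25), THEMIS (-3.82) and LAT (-1.88) of the same list fell as well, so that 4 of its 18 genes were lower and 1, CD7, was higher. CCR7, the lymph node homing receptor, was at 0, 18.4, 45.1 and 4.20 CPM against 72.8, 113, 157 and 43.4 CPM (-2.94 ± 0.59 SE, adjusted p = 0.0138), and dog 3 of the members lay just above dog 4 of the comparator. CD28, CTLA4, GZMK, RGS10, JAML, THY1, TRIM22 and SH3KBP1 fell. None of the MHC class II genes, cytokines, cytokine receptors, cell cycle genes, early response genes or glycolysis enzymes tested passed. With the dog block 1 MHC class II gene and 5 naive and stem-like memory genes were lower, and 1 cytokine receptor, 1 early response gene and 4 innate-like genes were higher. Without dog 4, 34 genes passed. LAT (-2.11, from -1.88), THY1 (-1.73, from -1.80), CD96 (0.99, from 1.04) and ITGAM (1.74, from 1.97) missed the threshold at a similar size, and SYTL2 (1.10, from 1.52), CLNK (1.05, from 1.40) and CD28 (-2.16, from -2.71) at a smaller one. Without dog 2, 32 passed, and CCR7 (-3.07), CTLA4 (-3.04), RGS10 (-3.42) and TIGIT (1.85) missed the threshold. Without clone 1, 57 passed. With DESeq2, CCR7 (adjusted p = 0.183) and THY1 (adjusted p = 0.0823) did not pass, and CTSW did not without dog 1, 2 or 3.

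**Figure D3:**
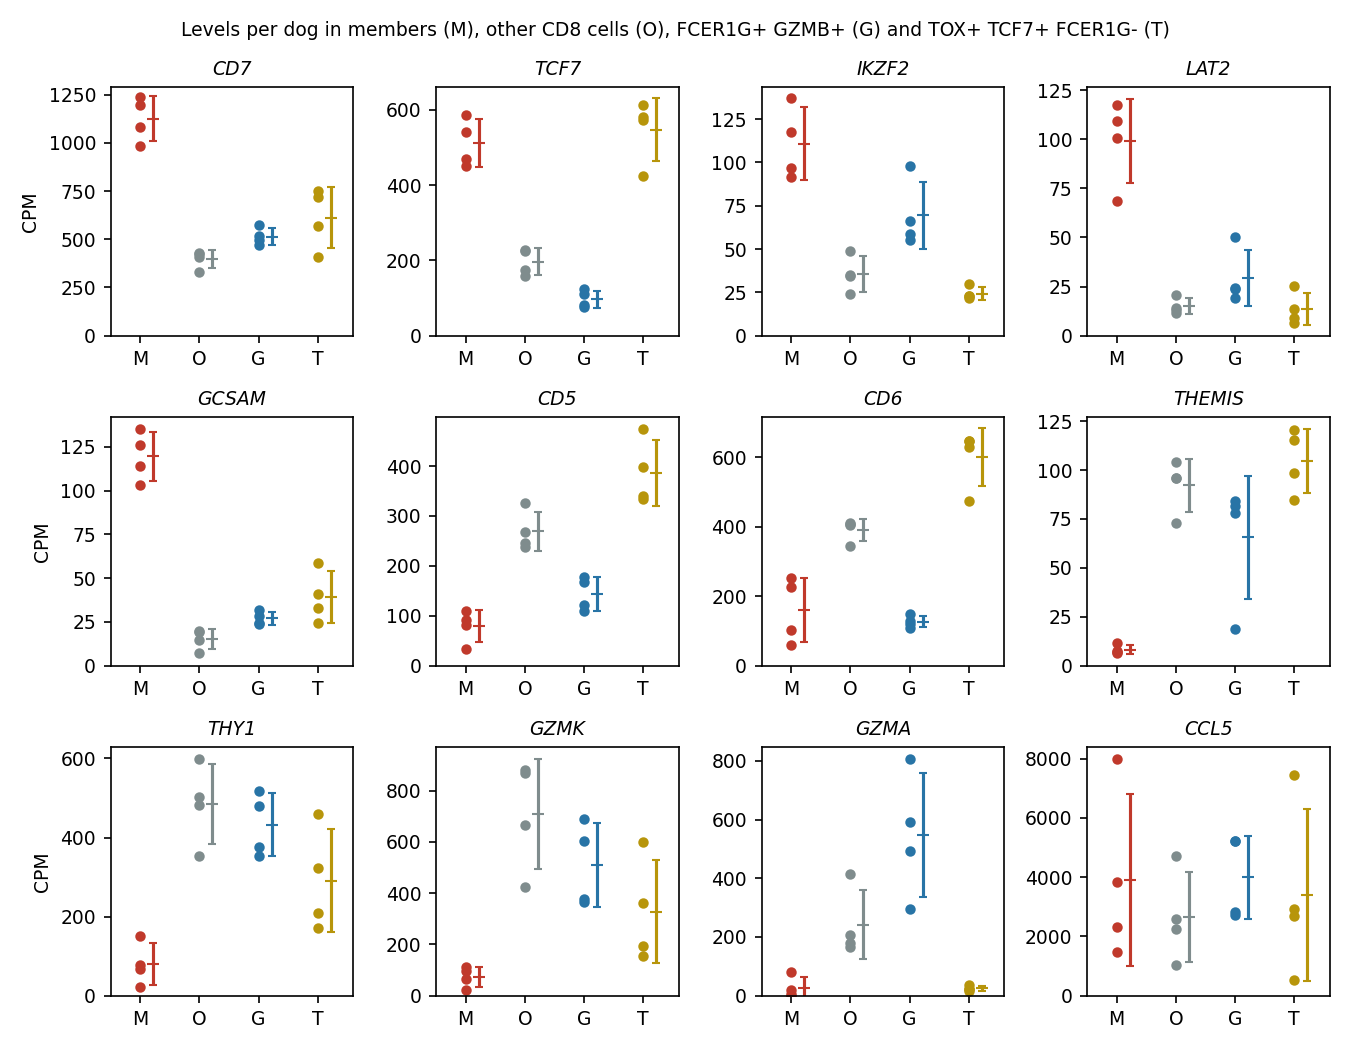
Levels in CPM of selected genes in members (M), other CD8A+ CD4- cells (O), FCER1G+ GZMB+ cells (G) and TOX+ TCF7+ FCER1G- cells (T), where points are the 4 dogs and bars the mean ± SD. CD7 lies between 985 and 1240 CPM in members and at or under 752 CPM in every other group.

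The 3 comparisons share the members, and the other CD8A+ CD4- cells contain both smaller groups, so their results are not independent. CD7, LAT2, GCSAM and TIGIT were higher, and THEMIS, CD5, GZMK and THY1 lower, in all 3 by edgeR. Members are set side by side here with no test of overlap.

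The members were not uniform. A total of 9 TRB clones had 4 or more members and together held 150 of the 247 members and 313 cells. Among the members with a TRB, 14, 50, 23 and 131 in dogs 1 to 4, there were 10, 27, 15 and 16 distinct TRB junctions, counting 1 per cell, and the largest clone held 28.6%, 30.0%, 34.8% and 58.0% of them. All values of a clone are from 1 dog, and no test was made between clones.

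The gate cut across the clones. In 8 of the 9, TOX was detected in 71.4 to 95.5% of all cells, and FCER1G in 93.1 to 100% of the cells of 7 of them. GZMB was detected in 11.1 to 57.1% of the cells of the 9 clones, so that sister cells fell on both sides of the GZMB rule. Of the 143 CD8A+ CD4- clone cells that were not members, 81 had no TOX UMI, 78 had a GZMB UMI and 13 had no FCER1G UMI, and a cell can count under more than 1. Their CD7 was at 1058 CPM and their CD5 at 73.9 CPM, where members in the clones had 1375 and 34.8 CPM.

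Clone 5 of dog 4 stood apart. TOX was detected in 22.6% of its 53 cells, of which 9 were members. Its CD7 was at 263 CPM, its GZMK at 448 CPM and its CCL5 at 25.8 CPM, and GCSAM and TIGIT were at 0. In the other 8 clones CD7 ranged from 881 to 1595 CPM, GZMK from 0 to 6.41 CPM and GCSAM from 113 to 252 CPM. Clone 9 of dog 1 had the highest CCL5, 12875 CPM, and the highest CD5, 305 CPM, of the 9.

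Members in the 9 clones and members with another TRB differed in level. CD7 was at 1375 CPM in the 150 former and 987 CPM in the 68 latter, GZMK at 27.8 and 124 CPM, CD5 at 34.8 and 88.2 CPM, and THEMIS at 1.39 and 16.5 CPM. In dog 4 the TRAV24 members (86 cells) had 7.66 CPM of CD5 and 0 CPM of GZMK, and its members with another TRAV (47 cells) had 62.0 and 97.4 CPM. These are values of pooled cells, and no test was made. Dog 4 gave 114 of the 150 and 17 of the 68. Within dog 4, members in the clones and members with another TRB had CD7 at 1357 and 1278 CPM, CD5 at 19.2 and 54.6 CPM and GZMK at 36.4 and 0 CPM. The 76 members of clone 1 had 0 CPM of GZMK, and of the clones of dog 4 only clone 5, with 9 members, was above 6.41 CPM. Within dog 2, CD7 was at 1441 and 766 CPM, CD5 at 31.3 and 126 CPM and GZMK at 7.83 and 229 CPM.

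**Figure D4:**
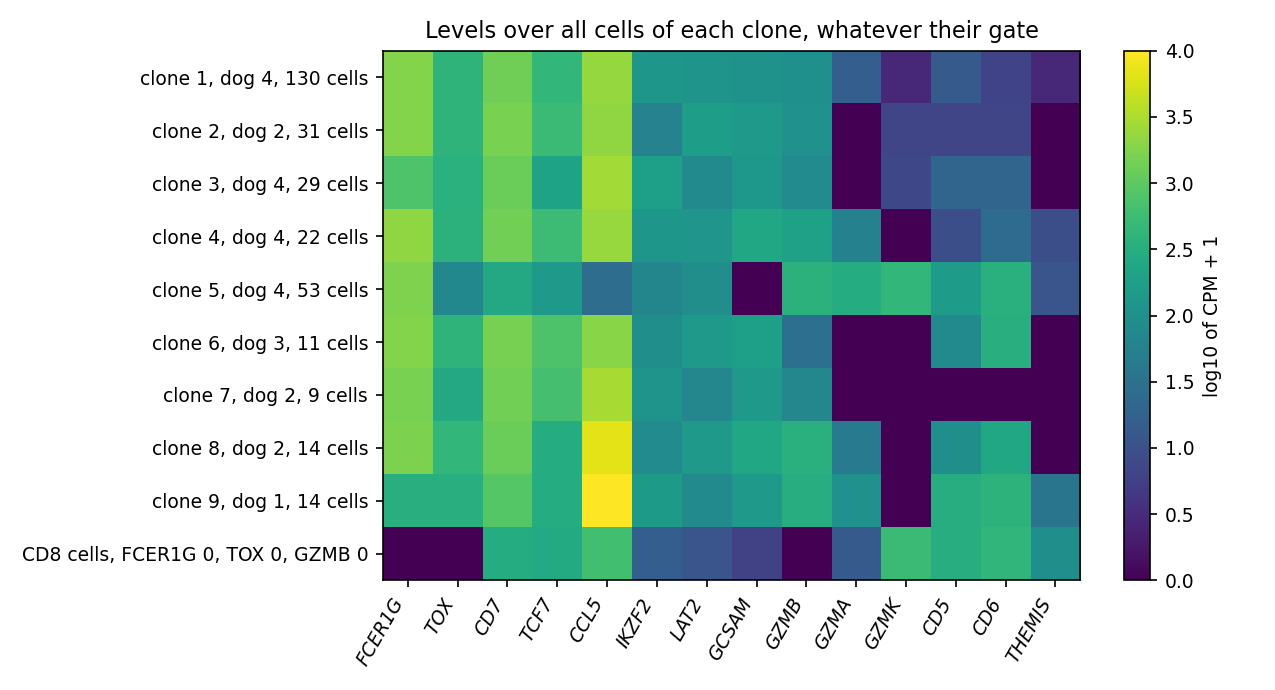
Level of 14 genes, as log10(CPM + 1) on the colour scale, in the 9 member clones (all cells of each clone) and in CD8A+ CD4- cells with FCER1G, TOX and GZMB at 0. Clone 5 shows low CD7 and high GZMK beside the other clones.

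The cells just outside each rule were examined as descriptions. The 53 cells that met every rule but had exactly 1 GZMB UMI had CD7 at 1064, TCF7 at 334 and CD5 at 69.6 CPM, where members had 1182, 488 and 57.8 CPM. All 190 cells that met every rule but had 1 or more GZMB UMIs had CD7 at 864, TCF7 at 187 and CD5 at 99.1 CPM. Their TIGIT was at 41.8, GCSAM at 88.4 and GZMA at 313 CPM, where members had 46.4, 123 and 24.4 CPM. The 234 cells that lacked only TOX had CD7 at 759 and GZMK at 417 CPM. The 499 cells that lacked only FCER1G had CD7 at 621, CD5 at 396 and THEMIS at 114 CPM, against 7.33 CPM of THEMIS in members. The 1516 CD8A+ CD4- cells at 0 for FCER1G, TOX and GZMB had CD7 at 297, CD5 at 311 and GZMK at 537 CPM.

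Receptor features were compared over dogs. Cells with more than 1 productive TRA made up 8.33%, 8.70%, 4.17% and 53.4% of members with a TRA and 5.59%, 6.26%, 6.07% and 7.69% of the other CD8A+ CD4- cells. Dog 4 was far above the rest and dog 3 below its comparator, and the means of 18.6% ± 23.3 and 6.40% ± 0.905 did not differ beyond the spread (exact permutation test, two-sided p = 0.314, adjusted p = 0.571, n = 4 dogs). With 4 against 4 dogs the smallest two-sided p is 0.0286, before adjustment. With the values of each dog paired, by sign flips within dogs, it is 0.125, so no share could pass that test. The sign flips gave p from 0.25 to 0.75 over the 5 shares. Without the cells of library 1 that share a TRB junction with library 4, the mean in members was 16.6% and members were higher in 2 of 4 dogs. Without dog 4 the means were 7.07% and 5.97%, a difference of 1.09 percentage points in place of 12.2. That difference was 5.24 without clone 1 and 7.30 with clones in place of cells.

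TRAV24 was used by 33.3%, 6.52%, 0% and 64.7% of members and by 9.98%, 15.0%, 3.47% and 7.53% of the other cells (exact permutation p = 0.4, adjusted p = 0.571). Members were higher in dogs 1 and 4 and lower in dogs 2 and 3. In dog 1, 2 of the 4 TRAV24 members carried the TRAV24/TRAJ38 junction of clone 1 of dog 4, and without the cells of library 1 with a TRB junction of library 4 the mean in members was 22.8% in place of 26.1%. Of TRAV24 CD8A+ CD4- cells, 4 of 54, 3 of 154, 0 of 56 and 86 of 179 were members. Outside clone 1, dog 4 had 17 such members. TRA junctions of 13 amino acids (31.9% and 18.5%), cells in a clone of 2 or more cells (70.1% and 61.5%) and cells with more than 1 productive TRB (3.05% and 4.11%) did not pass either, with adjusted p from 0.571 to 0.743 by the exact permutation test over 5 shares. Junctions of 13 amino acids made 23.1%, 52.0%, 8% and 44.6% of the TRA junctions of members in dogs 1 to 4. The difference of 13.5 percentage points was 7.23 without dog 2, 21.0 without dog 3 and 5.88 with clones in place of cells. Cells in a clone of 2 or more made 58.3%, 68.9%, 57.1% and 96.1% of members, and the difference of 8.61 points was 3.43 without dog 4 and 15.9 without dog 3. Of the members of dog 4 with a TRB, 16 of 131 had more than 1, and 15 of them were clone 3, whose cells carry a TRBV24 and a TRBV28 junction.

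No V or J gene passed. Of 96 tested with edgeR, 0 had an adjusted p under 0.05 (0.0%), and 14 had an unadjusted p under it. TRBV26 was used by 0%, 48.0%, 34.8% and 0% of members and by 2.57%, 6.03%, 2.66% and 4.14% of the other cells (log2 fold change 2.45, adjusted p = 0.253), and it passed once dog 4 was left out (3.03, adjusted p = 0.0048). TRBV3-1 was used by 14.3%, 2%, 0% and 76.3% of members (adjusted p = 0.253) and TRAV43-1 by 0%, 47.8%, 37.5% and 2.26% (adjusted p = 0.293). Dogs 2 and 3 thus led in TRBV26 and TRAV43-1, and dog 4 in TRBV3-1 and TRAV24. The 24 TRBV26 members of dog 2 equal in number the members of clones 2, 7 and 8, and the 8 of dog 3 those of clone 6, all of which use TRBV26. With clones in place of cells, 0 of 94 genes passed, and 6 had an unadjusted p under 0.05 by edgeR.

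TRBV25 was lower in members in 4 of 4 dogs, at 7.14%, 6%, 0% and 0% against 17.6%, 10.4%, 12.49% and 5.89%, without passing (adjusted p = 0.293). TRAV9-11 was used by 41.7%, 13.04%, 29.2% and 18.8% of members, TRBV28 by 7.14%, 2%, 0% and 11.5%, and TRBJ2-1 by 21.4%, 6%, 26.1% and 63.4%. None of these differed from the other cells in any edgeR fit, with adjusted p of at least 0.821, 0.640 and 0.483 over the alternatives. TRAJ28 was used by 0%, 21.7%, 29.2% and 0% of members against 37.5%, 22.9%, 20.9% and 11.01% of the others. The TRAV9-11/TRAJ28 pairing was carried by 0, 4, 5 and 0 members, of 153, 181, 244 and 97 CD8A+ CD4- cells with it. The transcript of TRBV18 was lower in members in 4 of 4 dogs (log2 fold change -1.51, adjusted p = 0.0053), but it did not pass without dog 4 (-0.93, adjusted p = 0.0603) or without dog 2 (-1.47, adjusted p = 0.0622).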

How the data were processed

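The deposited files were 10x matrices of UMI counts and tables of assembled receptors for 4 dogs, which the authors made with Cell Ranger 5.0.1, per the submitters' processing notes, with CanFam 3.1 as reference per the study's methods. The counts were used as deposited, with no normalization by the authors. Dog 1's own gene list was not used: its gene totals correlated with those of dogs 2 to 4 under the gene names of dog 2 (r across genes 0.991, 0.990 and 0.989 on a log scale), and genes are not independent replicates. Receptor junctions came from the deposited tables, and no genome sequence or coordinates were used here.

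Cells with 500 to 20000 UMIs and at most 10% mitochondrial UMIs were kept. No doublet caller was run, and free RNA was not removed. UMIs were summed per dog and group and tested with edgeR 4.0.16 in R 4.3.3 (quasi-likelihood, TMM, filterByExpr, minimum count 10, threshold 0.05), with DESeq2 1.42.0 as an alternative. The sums per group held from 87327 to 8636717 UMIs, so dog 1's 14 members are the least precise. Shares were tested with exact permutation tests over dogs (Python 3.11.15, scipy 1.17.1). The steps were tested on simulated data: against the other CD8A+ CD4- cells, 89 of 100 simulated 4-fold and 55 of 100 2-fold changes were recovered among 7944 genes.

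Both sums of a dog come from the same animal, so the dog numbers pair the sums. The correlations of their deviations from the group means were 0.103 to 0.201 against the other cells, 0.123 to 0.218 against FCER1G+ GZMB+ cells and 0.0531 to 0.154 against TOX+ TCF7+ FCER1G- cells.

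Members, gene lists and tests were chosen with earlier results of these data known. Named genes were the 12 highest and 12 lowest log2 fold changes per comparison among genes that passed, moved the same way in 4 of 4 dogs, had a symbol and reached a mean of 50 CPM in a group, every list gene that passed, and 2 to 4 examples per list that did not. These examples were chosen after their values were seen. A few list genes that met the rule are not reported here. Clone 1 and the receptors shared by libraries 1 and 4 were left out as alternatives chosen after seeing the data.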

Additional observations from a re-analysis of the deposited data

Results flagged for a closer look

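Among 213 groups of 4 dogs, 17 had 1 dog far from the other 3 (a gap to the nearest dog above Dixon's 95% critical share of the group's range), where chance gives about 1 in 20. In members, dog 4 stood apart for cells with more than 1 productive TRA (53.4%) and more than 1 productive TRB (12.2%). Dog 1 stood apart in members for TIGIT (22.9 CPM), IL2RG (332 CPM) and HMGB2 (595 CPM), dog 2 for BTLA (3.67 CPM), and dog 3 for CD8A (1553 CPM) and ENO1 (38.7 CPM). BTLA was at 0 in the members of the other dogs, so any count in dog 2 would have been flagged.

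In the other CD8A+ CD4- cells, dog 1 stood apart for EOMES (44.1 CPM), CD27 (135 CPM) and CD6 (344 CPM), and dog 2 for BTLA (2.22 CPM). Dog 3 stood apart for CCR6 (8.22 CPM) and LDHB (181 CPM), and dog 4 for GZMA (416 CPM), CCR7 (22.5 CPM) and TRBV3-1 use (9.25%).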

How the results depend on the processing

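Fits with the dog as replicate block called 498 genes against the other CD8A+ CD4- cells, 448 against FCER1G+ GZMB+ cells and 110 against TOX+ TCF7+ FCER1G- cells, where fits without it called 249, 265 and 53. With no filter on low counts the numbers were 396, 475 and 200. Leaving out each dog in turn gave 88 to 225, 126 to 231 and 32 to 55 genes, lowest without dog 4 or dog 2, and 0 to 1 V or J genes (TRBV26 without dog 4). The difference in cells with more than 1 productive TRB, -1.06 percentage points, was 3.14 without clone 1 and ranged from -4.40 to 0.990 over the fits that left out 1 dog, above 0 only without dog 2. With GZMB+ cells out of the comparator, the log2 fold changes of GZMA (0.18), TBX21 (0.41), PRF1 (0.045), NCR3 (1.45), CCL4 (0.47), ITGAL (0.19), IL2RG (-0.011), IL12RB2 (0.10) and GAPDH (0.11) turned. With the gate without TOX, 173 genes were called, 130 of them among the 249, 28 of 61 named genes lost the call (among them CCR6, TBX21, EOMES, PRF1, IL2, PDCD1 and CD244), and NCR3 (0.19), ZBTB16 (0.089), IL12RB2 (0.36) and STMN1 (-0.13) turned. NCR3 also turned with the block (0.017). Leaving out 1 dog turned NCR3 without dog 1 (range -0.22 to 0.12), IL7R without dog 3 (-0.50 to 0.030), TRAV9-11 use without dog 2 (-0.34 to 0.018) and TRBJ2-1 use without dog 4 (-0.13 to 1.08). TRAV9-11 use also turned when clones replaced cells (0.060), and without clone 1 (0.16) as did TRBV28 (0.17) and TRBJ2-1 (-0.27). Apart from the GZMB+ cells, whose removal changes the comparator, the cause was not tested. DESeq2 called 364, 214 and 55 genes, with the median of all genes at 0.14 against the other cells, where it was -0.15 with no filter. The comparison of TRAV24 members with other members was not run, since only dog 4 had at least 10 cells of each. With 14 members in dog 1, differences in low genes were not detectable there.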
